A study of Mus musculus with 9 samples.

Results

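The proteasome genes of mouse tibialis anterior muscle are described here, across control muscle and muscle lacking MCU or MCUb, proteins of the mitochondrial calcium uniporter. Members were taken by symbol: every gene named Psma, Psmb, Psmc, Psmd or Psme followed by a digit, with Psmc3ip left out because it is no proteasome subunit. The rule found 44 genes among the 19505 named on the array, and each had 1 probe set. It used names alone and no measured value. One of the 44, Psme3ip1, encodes a protein that binds the activator Psme3 and is no subunit, and it is counted with the members because its name fits. The catalytic subunit Psmb5 and the ubiquitin receptor Adrm1 of the regulatory particle were not analysed here.

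The muscles came from 2-month-old mice on the C57/BL6 background, profiled on Affymetrix Clariom S arrays, with 3 arrays for each of 3 genotypes. Control mice were MCU+/+/MCUb+/+. MCU knockout mice were MCU-/-/MCUb+/+ and lacked the pore-forming subunit of the mitochondrial calcium uniporter, while MCUb knockout mice were MCU+/+/MCUb-/- and lacked its paralog. The labels name no Cre driver, so which cells carried the deletions is not given in the sources used here, nor are sex, litter and time of harvest, and nothing says whether the 3 samples of a genotype were from different mice. P-values here thus rest on the spread among samples of the same genotype, pooled over the 3 genotypes, part of which may be technical.

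The proteasome is the barrel-shaped protease that degrades proteins tagged with ubiquitin. Its core particle stacks rings of alpha subunits, which form the gate, around rings of beta subunits, of which Psmb5, Psmb6 and Psmb7 cut peptide bonds. The regulatory particle caps the barrel: a ring of ATPases and further scaffold and ubiquitin-binding subunits make its base, which unfolds the substrate, and a lid carries the enzyme that removes ubiquitin. Inflammatory signals replace the cutting subunits by Psmb8, Psmb9 and Psmb10 to form the immunoproteasome, and activators of the Psme family can take the place of the regulatory particle. In skeletal muscle the proteasome removes contractile proteins during atrophy, when ubiquitin ligases such as Fbxo32 and Trim63 are induced.

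The deposited values are on a log scale and were read as log2, so a difference of 1 is taken as a factor of 2. Detection was read per array: a value over the 95th percentile of the 23 background features (5.87 to 5.92) was taken as above background. The arrays had 45.3% to 46.0% of probe sets above that limit and medians of 5.51 to 5.60. Control replicate 3 stood apart from the other arrays. Its mean correlation with the other 8 was 0.978, against 0.985 to 0.988 for the rest, and its score on the first principal component was -70.8, against -20.3 to 21.9. Mcu itself was 10.60 ± 0.31 in control (log2, SD, n = 3), 6.94 ± 0.13 in MCU knockout and 10.86 ± 0.18 in MCUb knockout. The MCU knockout change of -3.65 passed the test (limma, adjusted p = 3.47e-05). For the MCUb knockout no such check was made, since Mcub was not analysed here. The 12 markers of skeletal muscle fibres were above background on every array, with a mean level between 17.66 and 18.09. Of 9 lymphocyte markers read, 8 were above background on no array, Cd4 being the exception.

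Proteasome transcripts were detected broadly and differed little between the genotypes. Of the 44 members, 42 were above background on all 9 arrays. The other 2, Psma8 of the testis proteasome and Psmb11 of the thymus proteasome, were above background on none, so only a bound is known for them. No member passed the adjusted threshold in any comparison (limma over 22206 probe sets, Benjamini-Hochberg, threshold 0.05). The count was 0 of 44 in MCU knockout against control, where 0.14% of all probe sets passed, and 0 of 44 in MCUb knockout against control, where 0.0225% passed. It was 0 of 44 between the knockouts, where 0.158% passed. At an unadjusted p under 0.05 the counts were again 0 of 44 in each comparison, while 10.1%, 8.11% and 5.7% of all probe sets lay under that limit in the same order. Member changes were small: the largest was 0.63 for Psme2b in MCU knockout, 0.54 for Psmd5 in MCUb knockout and 0.40 for Psmb8 between the knockouts. The smallest changes of any probe set that passed were 1.20, 1.67 and 1.11. The precision allows limited statements on size. The 95% intervals of 38, 37 and 40 of the 42 detected members lay within 1 log2 unit of 0 in the 3 comparisons, with a median half-width of 0.43.

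**Figure D1:**
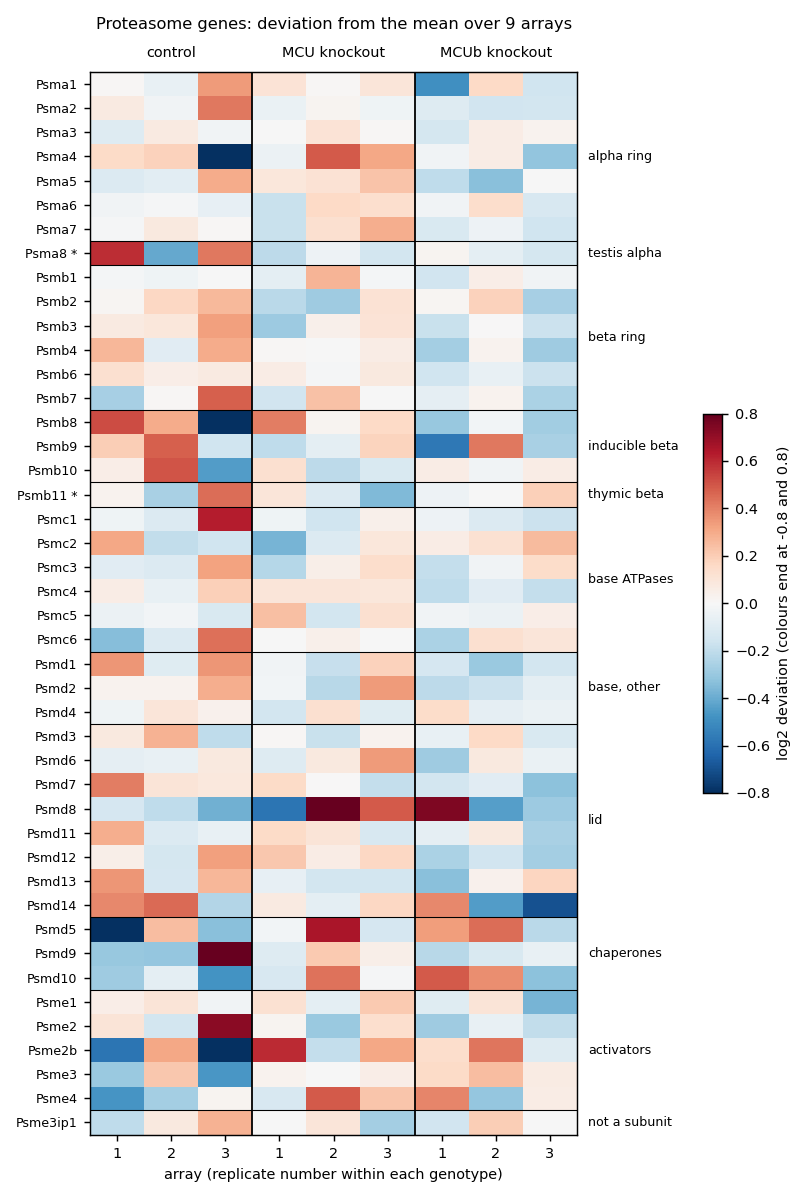
Deviation of each proteasome gene, in log2 units, from its own mean over the 9 arrays; rows are the 44 genes by role and columns the 3 arrays of each genotype, and an asterisk marks the 2 genes above background on no array. Blue cells are frequent in the core and regulatory rows of the MCUb knockout columns, and control replicate 3 and Psmd8 carry many of the strongest colours.

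The pattern that can be described lay in the MCUb knockout. The median change of the 42 detected members was -0.15 in MCUb knockout against control, beside 0.00 over all 8684 probe sets detected on 9 arrays. In MCU knockout against control it was -0.03, beside -0.02, and between the knockouts 0.12, beside -0.02. These 3 comparisons share their arrays in pairs, so the medians are not independent of each other. Over all 44 members the medians were -0.15, -0.04 and 0.11 in the same order, beside -0.03, -0.02 and 0.01 over all 22206 probe sets. In MCUb knockout 31 of the 42 members lay below control and 11 above, where 4301 of the 8684 detected probe sets lay below. In MCU knockout 22 members lay below and 20 above, where 4561 of the 8684 lay below. The members were read on the same arrays and are not independent of each other, so these counts are a description and no test. For the core particle, of which 13 genes were read, the median in MCUb knockout was -0.17 with 10 below 0, and in MCU knockout -0.02 with 7 below 0. For the regulatory particle, with 17 genes, it was -0.12 with 14 below 0, and in MCU knockout -0.07 with 10 below 0. Without control replicate 3 the medians of the 42 members were -0.12 in MCUb knockout and 0.03 in MCU knockout.

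Averaged over their genes, both particles stayed within 0.2 log2 units of their own mean on every array. The mean deviation of the 13 core genes was 0.01, 0.03 and 0.12 on the control arrays, -0.07, 0.10 and 0.11 on the MCU knockout arrays, and -0.15, 0.01 and -0.16 on the MCUb knockout arrays. MCUb knockout replicate 2 thus reached the level of control replicate 1, and the groups touched. For the 17 regulatory genes the values were 0.09, -0.02 and 0.11 in control, -0.04, 0.01 and 0.10 in MCU knockout, and -0.05, -0.08 and -0.11 in MCUb knockout. Here all 3 MCUb knockout arrays lay below all 6 other arrays, but narrowly. MCUb knockout replicate 1 was at -0.05 and MCU knockout replicate 1 at -0.04. The balance between the particles stayed within its spread: the mean core level minus the mean regulatory level was 1.61 ± 0.07 in control, 1.63 ± 0.07 in MCU knockout and 1.59 ± 0.10 in MCUb knockout (log2, SD, n = 3). The size of that difference depends on how each probe set responds and carries no stoichiometry. The mean deviation of the 8684 detected probe sets lay between -0.04 and 0.06 on every array. In whole muscle, fewer cells of a type and less RNA per cell cannot be told apart.

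**Figure D2:**
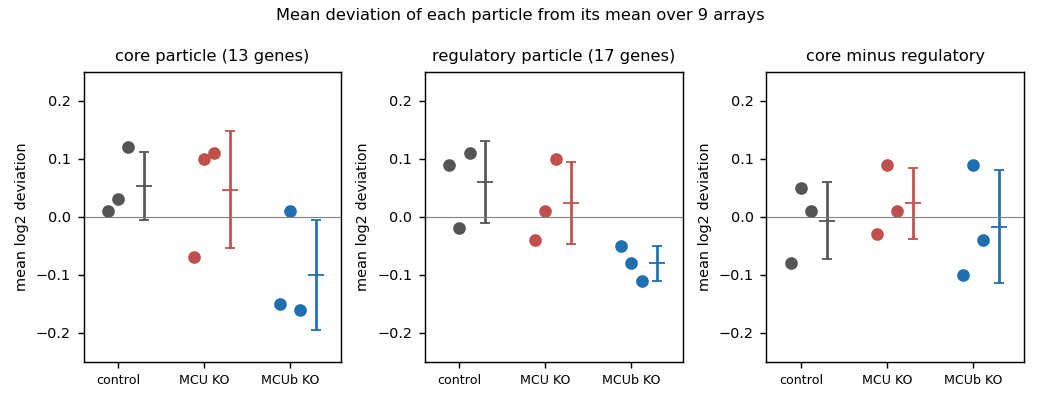
Mean log2 deviation of the 13 core genes, the 17 regulatory particle genes and their difference on each array (points), with the group mean and SD (bars, n = 3). The MCUb knockout arrays lie between -0.16 and 0.01 for the core and between -0.11 and -0.05 for the regulatory particle, and the difference overlaps between all 3 genotypes.

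For single genes, the description used here is whether the 3 arrays of a genotype all lay on one side of the 3 arrays of another. In MCUb knockout against control, 9 of the 42 detected members (21.4%) lay wholly below control and 0 of 42 wholly above, where 7.35% of all detected probe sets lay wholly below and 7.07% wholly above. In MCU knockout against control the counts were 0 of 42 above and 0 of 42 below, where 6.44% and 9.48% of detected probe sets did so. Between the knockouts, 6 of 42 members (14.3%) were wholly higher in MCU knockout and 1 (2.38%) wholly lower, beside 6.14% and 8.83%. Among bright probe sets, those with a mean level over 12, 9 of 31 members (29.0%) lay wholly below control in MCUb knockout, beside 9.33% of 1618 probe sets. With 3 arrays against 3, a two-sided exact permutation test of such a gene gives p = 0.1, the smallest it can give. Members read on the same arrays can shift together, so the shares are not a test over independent genes. Leaving out 1 array of the groups compared in turn gave between 9 and 14 members wholly below control in MCUb knockout, beside 10.7% to 16.8% of detected probe sets. With quantile normalization it was 7 of 42, beside 7.87%, and with each array centred on its median 8 of 42, beside 6.84%. Without control replicate 3 it was 11 of 42, beside 12.1% of detected probe sets. Without that array 7 of 42 were wholly above control in MCU knockout, beside 9.90%.

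The 9 genes were spread over both particles and 7 chromosomes. They were Psma2 and Psma7 of the alpha ring, Psmb3 and Psmb6 of the beta ring, the ATPase Psmc4, the large base subunits Psmd1 and Psmd2, and the lid subunits Psmd7 and Psmd12. Their changes ran from -0.14 to -0.40 in log2 units, and none passed the test. In MCU knockout their changes ran from -0.21 to 0.07.

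**Figure D3:**
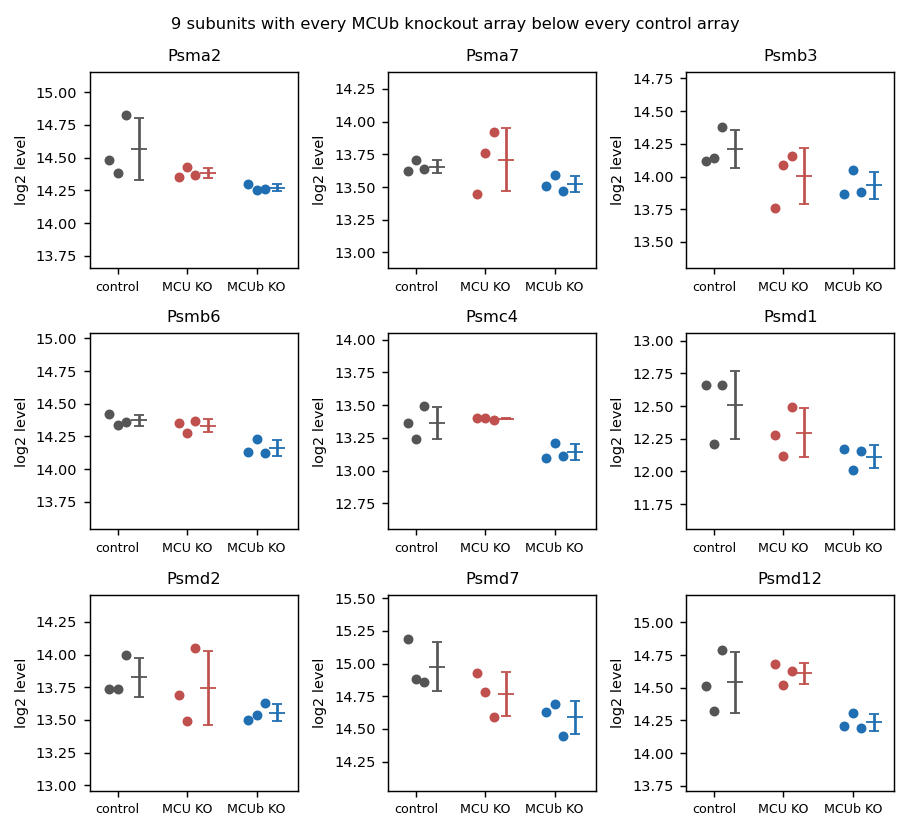
Log2 level of the 9 genes whose MCUb knockout arrays (KO) all lay below the control arrays; points are arrays, bars the group mean and SD (n = 3), and each panel has its own axis of equal span. The MCU knockout points overlap the control points in every panel.

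The promoters of 5 of these genes are shown, those among the 8 with a sequence window that hold a match to 1 of 3 sequences looked for. Nfe2l1, the transcription factor that raises proteasome genes when the proteasome is impaired, binds antioxidant response elements, and the CCAAT-binding factor NF-Y acts on many housekeeping promoters. Sequences are RefSeq windows of GRCm38.p6 from 250 bases before to 50 after the annotated start, given 5′ to 3′ on the gene's strand, with matches in capitals. Both strands were searched for TGACNNNGC (core of the antioxidant response element), CCAAT, and AANNGAAA (core of interferon regulatory factor sites). The windows are Psma2 at chr13:14612992-14613291, Psma7 at chr2:180042415-180042714, Psmb3 at chr11:97703184-97703483, Psmb6 at chr11:70525107-70525406 and Psmd12 at chr11:107479278-107479577, on the minus strand for Psma7 and on the plus strand for the others.
Psma2: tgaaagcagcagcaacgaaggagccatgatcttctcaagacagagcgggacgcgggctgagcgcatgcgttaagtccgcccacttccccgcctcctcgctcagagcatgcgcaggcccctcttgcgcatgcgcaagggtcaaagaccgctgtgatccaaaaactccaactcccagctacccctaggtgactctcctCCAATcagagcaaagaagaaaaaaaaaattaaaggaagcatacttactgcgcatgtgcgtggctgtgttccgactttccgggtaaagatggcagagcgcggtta
Psma7: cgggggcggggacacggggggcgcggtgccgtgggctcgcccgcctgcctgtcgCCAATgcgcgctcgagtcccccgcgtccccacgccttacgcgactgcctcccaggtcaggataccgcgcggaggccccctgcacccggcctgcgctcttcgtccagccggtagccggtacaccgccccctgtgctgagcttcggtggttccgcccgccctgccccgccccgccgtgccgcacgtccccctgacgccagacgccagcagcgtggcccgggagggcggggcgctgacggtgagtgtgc
Psmb3: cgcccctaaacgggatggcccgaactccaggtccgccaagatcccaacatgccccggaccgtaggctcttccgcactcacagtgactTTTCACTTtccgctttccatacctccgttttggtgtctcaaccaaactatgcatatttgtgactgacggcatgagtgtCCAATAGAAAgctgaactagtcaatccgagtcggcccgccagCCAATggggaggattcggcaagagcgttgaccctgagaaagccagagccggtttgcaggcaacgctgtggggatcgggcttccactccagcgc
Psmb6: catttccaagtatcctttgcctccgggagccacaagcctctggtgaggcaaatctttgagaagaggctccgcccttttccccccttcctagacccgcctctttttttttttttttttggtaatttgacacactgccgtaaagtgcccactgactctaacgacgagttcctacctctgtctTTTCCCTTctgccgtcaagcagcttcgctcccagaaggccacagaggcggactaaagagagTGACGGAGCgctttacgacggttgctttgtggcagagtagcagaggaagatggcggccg
Psmd12: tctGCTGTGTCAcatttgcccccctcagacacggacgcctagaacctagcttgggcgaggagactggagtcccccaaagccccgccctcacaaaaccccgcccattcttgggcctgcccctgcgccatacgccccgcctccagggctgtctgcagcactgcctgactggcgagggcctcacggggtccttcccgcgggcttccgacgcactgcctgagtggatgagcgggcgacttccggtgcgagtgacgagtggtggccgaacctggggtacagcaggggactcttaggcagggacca
Positions of matches are those of their leftmost base, counted from the start. In Psma2 the capitals mark 1 CCAAT, at -54, and in Psma7 1 CCAAT, at -196. In Psmb3 they mark CCAAT at -85 and -43, and AANNGAAA at -163 on the minus strand and at -83 on the plus strand, the last overlapping the CCAAT at -85. In Psmb6 they mark TGACNNNGC at -9 and, on the minus strand, AANNGAAA at -70. In Psmd12 they mark TGACNNNGC on the minus strand at -247.

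These letters were not concentrated in proteasome genes. A window was found for 37 of the 44 members, and 27025 genes had one in all. TGACNNNGC was present in 5 of 37 members (13.5%), namely Psmb6, Psmc6, Psmd12, Psmd9 and Psme4, beside 14% of all genes. CCAAT was present in 15 of 37 (40.5%), beside 41.1%, and AANNGAAA in 11 of 37 (29.7%), beside 26.7%. Within the core particle 6 of 10 genes held CCAAT, and within the regulatory particle 4 of 14. Of the 9 genes wholly below control in MCUb knockout, 8 had a window. TGACNNNGC was in 2 of the 8, CCAAT in 3 and AANNGAAA in 2, and among the 16 other core and regulatory genes they were in 1, 7 and 7. The windows hold only the letters near the annotated start, and a match is not a bound site.

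The alpha ring forms the gate of the core particle. Psma2 was 14.48, 14.38 and 14.83 on the control arrays, 14.35, 14.43 and 14.37 on the MCU knockout arrays, and 14.30, 14.25 and 14.26 on the MCUb knockout arrays. The MCUb knockout values were the 3 lowest of the 9 and lay within 0.05 of each other, while the control values spread widely through replicate 3. The change was -0.29 ± 0.17 (SE) in MCUb knockout and -0.18 ± 0.17 in MCU knockout (limma, adjusted p = 0.667 and 0.749). Psma7 was 13.62, 13.71 and 13.64 in control, 13.45, 13.76 and 13.92 in MCU knockout, and 13.51, 13.59 and 13.47 in MCUb knockout. Its MCUb knockout arrays sat just under control, by -0.14 ± 0.18, and its MCU knockout arrays ran from the lowest to the highest value of all 9. Psma5 was 14.95, 14.98 and 15.36 in control, 15.15, 15.18 and 15.29 in MCU knockout, and 14.86, 14.73 and 15.06 in MCUb knockout. The MCU knockout arrays were all above the MCUb knockout arrays, by 0.32 ± 0.18 (limma, adjusted p = 0.962). The 7 alpha genes all had positive changes in MCU knockout against MCUb knockout, from 0.04 to 0.35, and 2 of them, Psma2 and Psma5, did not overlap.

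Other alpha genes showed how the arrays themselves varied. Psma3, one of the steadiest members, was 15.95, 16.12 and 16.02 in control, 16.05, 16.16 and 16.06 in MCU knockout, and 15.91, 16.11 and 16.08 in MCUb knockout. Its genotypes overlapped fully, with a change of 0.00 ± 0.16 in MCUb knockout. Psma4 was 9.91, 9.94 and 8.95 in control, 9.71, 10.25 and 10.07 in MCU knockout, and 9.73, 9.82 and 9.44 in MCUb knockout. Control replicate 3 was the lowest of the 9 arrays, and the MCU knockout change was 0.41 ± 0.27 (limma, adjusted p = 0.635). Psma1 and Psma6 overlapped in every comparison, with changes between -0.26 and 0.24. Psma8, a testis subunit, lay between 3.46 and 4.46, under the background limit on every array.

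The beta ring holds the cutting sites, and its 6 genes read all lay below control in MCUb knockout, from -0.03 for Psmb1 to -0.34 for Psmb4. Psmb6, the subunit of caspase-like activity, was 14.42, 14.34 and 14.36 in control, 14.35, 14.28 and 14.37 in MCU knockout, and 14.13, 14.23 and 14.12 in MCUb knockout. It was the tightest of the 44 genes, with a within-group SD of 0.05, and its MCUb knockout arrays lay below all 6 others. The change against control was -0.21 ± 0.16 (limma, adjusted p = 0.726), and the difference between the knockouts was 0.17 ± 0.16. The standard error is larger than the gene's own spread because limma draws each gene's variance towards that of all probe sets. Psmb3, a structural beta subunit, was 14.12, 14.14 and 14.38 in control, 13.76, 14.09 and 14.16 in MCU knockout, and 13.87, 14.05 and 13.88 in MCUb knockout. Its MCUb knockout arrays were below control by -0.28 ± 0.18, but MCU knockout replicate 1 was lower than any of them.

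Psmb7, the subunit of trypsin-like activity, was 15.09, 15.36 and 15.83 in control, 15.20, 15.59 and 15.35 in MCU knockout, and 15.28, 15.38 and 15.10 in MCUb knockout. Control replicates 1 and 3 were the lowest and the highest of all 9 arrays, so the groups overlapped throughout. Psmb4 was 15.93, 15.57 and 15.96 in control, 15.67, 15.66 and 15.72 in MCU knockout, and 15.39, 15.69 and 15.38 in MCUb knockout. MCUb knockout replicates 1 and 3 were low and replicate 2 lay inside the control range, for a change of -0.34 ± 0.18 (limma, adjusted p = 0.641). Psmb2 and Psmb1 overlapped in every comparison, with changes between -0.27 and 0.10.

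The inducible beta subunits, which build the immunoproteasome, were read close above the background limit, between 6.19 and 7.96. Psmb8, the counterpart of Psmb5, was 7.96, 7.74 and 6.64 in control, 7.85, 7.46 and 7.60 in MCU knockout, and 7.14, 7.42 and 7.16 in MCUb knockout. Its knockouts did not overlap, with MCU knockout above by 0.40 ± 0.30 (limma, adjusted p = 1), while control replicate 3 alone was below every other array. Psmb9, the counterpart of Psmb6, was 7.10, 7.38 and 6.74 in control, 6.70, 6.82 and 7.08 in MCU knockout, and 6.33, 7.32 and 6.64 in MCUb knockout. Psmb10, the counterpart of Psmb7, was 6.69, 7.14 and 6.19 in control, 6.77, 6.43 and 6.52 in MCU knockout, and 6.70, 6.61 and 6.70 in MCUb knockout. Both overlapped in every comparison, and control replicate 3 was again the lowest of the 9 for Psmb10. The mean of the 3 genes was 7.06 ± 0.47 in control, 7.03 ± 0.11 in MCU knockout and 6.89 ± 0.20 in MCUb knockout (log2, SD, n = 3). Immune cells and interferon are known sources of their expression. The mean level of 11 macrophage and neutrophil markers ran from 6.21 to 7.06 in control, 6.37 to 6.67 in MCU knockout and 6.59 to 6.92 in MCUb knockout, with 4 of the 11 above background on every array. That of 13 interferon response genes ran from 6.09 to 6.17, 6.04 to 6.13 and 5.96 to 6.13, with 7 of the 13 above background on none. The part of these markers in the inducible subunits was not tested. Psmb11, the thymus subunit, lay between 3.92 and 4.72, under the background limit.

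In the base of the regulatory particle, 6 ATPases pull the substrate into the core. Psmc4 was 13.36, 13.24 and 13.49 in control, 13.40, 13.40 and 13.39 in MCU knockout, and 13.10, 13.21 and 13.11 in MCUb knockout. The MCUb knockout arrays lay below all 6 others, and the MCU knockout arrays fell inside the control range. The change was -0.22 ± 0.16 against control and the difference between the knockouts 0.26 ± 0.16 (limma, adjusted p = 0.724 and 0.989). Psmc3 was 14.57, 14.55 and 14.98 in control, 14.43, 14.71 and 14.80 in MCU knockout, and 14.47, 14.63 and 14.81 in MCUb knockout. Psmc6 was 12.10, 12.33 and 12.88 in control, 12.44, 12.48 and 12.44 in MCU knockout, and 12.19, 12.57 and 12.54 in MCUb knockout. Both overlapped, and in both control replicate 3 was the highest of the 9 arrays. The other ATPases, Psmc1, Psmc2 and Psmc5, overlapped in every comparison, with changes between -0.27 and 0.16. Over the 6 ATPases the median change was -0.03 in MCUb knockout and -0.02 in MCU knockout.

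Psmd1 and Psmd2 are the large scaffold subunits of the base, which dock ubiquitin receptors and shuttle factors. Psmd1 was 12.66, 12.21 and 12.66 in control, 12.28, 12.12 and 12.49 in MCU knockout, and 12.17, 12.01 and 12.16 in MCUb knockout. Control replicate 2 came within 0.05 of the highest MCUb knockout array, and the other control arrays were well above them. The MCUb knockout change of -0.40 ± 0.19 put control 1.32-fold above (limma, adjusted p = 0.619), and the MCU knockout change was -0.21 ± 0.19. Psmd2 was 13.83 ± 0.15 (SD, n = 3) in control, with 13.74 on replicates 1 and 2 and a higher value on replicate 3. It was 13.69, 13.49 and 14.05 in MCU knockout, and 13.50, 13.54 and 13.63 in MCUb knockout. Its MCUb knockout arrays were below control by -0.27 ± 0.19, while MCU knockout held both the lowest and the highest value. The ubiquitin receptor Psmd4 lay between 12.28 and 12.57 on all 9 arrays, with changes of -0.02 in MCUb knockout and -0.07 in MCU knockout.

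The lid holds the deubiquitinating enzyme Psmd14 with its partner Psmd7 and scaffold subunits such as Psmd12. Psmd7 was 15.19, 14.88 and 14.86 in control, 14.93, 14.78 and 14.59 in MCU knockout, and 14.63, 14.69 and 14.45 in MCUb knockout. The MCUb knockout arrays were below every control array, and MCU knockout lay between and overlapped both. Psmd7 had the smallest p of the members in MCUb knockout, at -0.38 ± 0.18, which put control 1.30-fold above (limma, adjusted p = 0.619). Psmd12 was 14.51, 14.32 and 14.79 in control, 14.68, 14.52 and 14.63 in MCU knockout, and 14.21, 14.31 and 14.19 in MCUb knockout. Its MCUb knockout arrays lay below all 6 others, control replicate 2 by 0.01. It had the smallest p of the members between the knockouts, where MCU knockout was higher by 0.37 ± 0.18 (limma, adjusted p = 0.89), and the MCUb knockout change against control was -0.31 ± 0.18. Psmd14 was 8.90, 8.97 and 8.28 in control, 8.59, 8.44 and 8.68 in MCU knockout, and 8.90, 8.07 and 7.82 in MCUb knockout. MCUb knockout replicate 1 was at the level of control replicate 1 and the other MCUb knockout arrays were the 2 lowest of the 9, for a change of -0.45 ± 0.29 (limma, adjusted p = 0.687). Of the remaining lid genes, Psmd3, Psmd6, Psmd11 and Psmd13 overlapped between the genotypes, with changes between -0.28 and 0.19.

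Psmd8, a lid subunit on chromosome 7, was the most variable member, with a within-group SD of 0.57, and was singled out after its values were seen. It was 13.87, 13.80 and 13.62 in control, 13.42, 14.80 and 14.49 in MCU knockout, and 14.75, 13.56 and 13.71 in MCUb knockout. The high arrays were MCU knockout replicates 2 and 3 and MCUb knockout replicate 1, and the lowest of these was 0.62 above the highest of the other 6. They were the same 3 arrays on which the Y-linked genes Uty and Kdm5d were high, with a mean of 7.24 to 7.80 against 3.01 to 3.89 on the others. The third Y-linked gene read, Eif2s3y, was above background on no array, at 3.75, 3.01 and 3.09 on those 3 and 2.75 to 3.04 on the others. Psme4 was likewise higher on all 3 of them than on the other 6, and Psmd13 lower, out of 44 members. Of all detected probe sets, 2.6% were higher on those 3 arrays and 2.59% lower. The changes of Psmd8 by genotype were 0.47 ± 0.37 in MCU knockout and 0.24 ± 0.37 in MCUb knockout (limma, adjusted p = 0.692 and 0.879). With the Uty and Kdm5d level as a covariate they were -0.25 and -0.11. The labels give no sex, and the high arrays belong to the knockouts alone, so this level and genotype are partly tied.

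**Figure D4:**
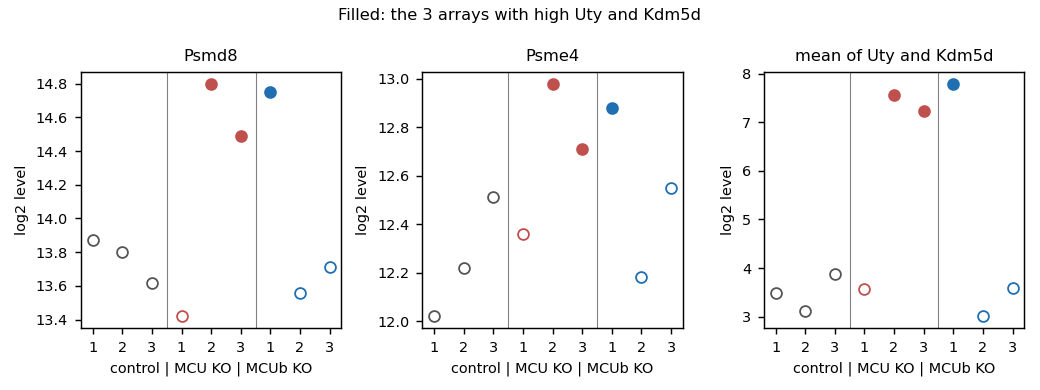
Log2 level of Psmd8, of the activator Psme4 and of the mean of Uty and Kdm5d on each array, numbered within each genotype; filled points are the 3 arrays of high Uty and Kdm5d, and each panel has its own axis. The filled points are the 3 highest in each panel, at 14.49 to 14.80 for Psmd8.

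The assembly chaperones of the base, Psmd5, Psmd9 and Psmd10, do not stay in the finished proteasome. Psmd5 was 6.18, 7.40 and 6.82 in control, 7.13, 7.81 and 7.02 in MCU knockout, and 7.49, 7.60 and 6.94 in MCUb knockout. Control replicate 1 was the lowest array, and the changes were 0.52 ± 0.32 and 0.54 ± 0.32 in MCU and MCUb knockout (limma, adjusted p = 0.611 and 0.67). Psmd10 was 8.25, 8.46 and 8.06 in control, 8.41, 8.97 and 8.53 in MCU knockout, and 9.03, 8.91 and 8.21 in MCUb knockout. Both knockouts overlapped control, with changes of 0.38 ± 0.25 and 0.46 ± 0.25 (limma, adjusted p = 0.625 and 0.64). Psmd9 was 8.98, 8.97 and 10.15 in control, 9.18, 9.49 and 9.33 in MCU knockout, and 9.06, 9.16 and 9.22 in MCUb knockout, so that control held both the lowest and the highest values. The median change over the 3 chaperones, which is that of Psmd10, was 0.38 in MCU knockout and 0.46 in MCUb knockout. It was opposite in direction to the core and regulatory medians, but Psmd9 went the same way as those, by -0.04 and -0.22. The 3 chaperones had a within-group SD of 0.33 to 0.48.

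Activators open the core particle without the regulatory particle. Psme1 and Psme2 form the interferon-inducible activator. Psme1 was 13.20, 13.25 and 13.12 in control, 13.27, 13.07 and 13.36 in MCU knockout, and 13.05, 13.25 and 12.78 in MCUb knockout. Psme2 was 12.64, 12.39 and 13.26 in control, 12.56, 12.24 and 12.67 in MCU knockout, and 12.25, 12.48 and 12.34 in MCUb knockout. Both overlapped between the genotypes, and control replicate 3 was the highest of the 9 for Psme2, whose MCUb knockout change was -0.41 ± 0.24 (limma, adjusted p = 0.659). Psme2b, whose sequence is close to that of Psme2, was 9.68, 10.57 and 9.36 in control, 10.86, 10.07 and 10.57 in MCU knockout, and 10.40, 10.69 and 10.16 in MCUb knockout. It had the smallest p of the members in MCU knockout, at 0.63 ± 0.31 or 1.55-fold (limma, adjusted p = 0.527), yet control replicate 2 was at the level of MCU knockout replicate 3. How far its probe set also reads Psme2 is not known, so its values are uncertain.

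Psme3, the nuclear activator, was 12.11, 12.62 and 11.94 in control, 12.43, 12.40 and 12.46 in MCU knockout, and 12.56, 12.65 and 12.47 in MCUb knockout. It was the 1 member wholly lower in MCU knockout than in MCUb knockout, by -0.13 ± 0.20, a difference smaller than its standard error. Psme4, the activator known from DNA repair and sperm, was 12.02, 12.22 and 12.51 in control, 12.36, 12.98 and 12.71 in MCU knockout, and 12.88, 12.18 and 12.55 in MCUb knockout. Its changes were 0.44 ± 0.24 in MCU knockout and 0.29 ± 0.24 in MCUb knockout (limma, adjusted p = 0.565 and 0.759), and its 3 highest arrays were those of high Uty and Kdm5d. Over the 5 activators the median change was 0.21 in MCU knockout and 0.29 in MCUb knockout. Psme3ip1, no subunit, overlapped in every comparison, with changes of -0.11 and -0.04.

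**Figure D5:**
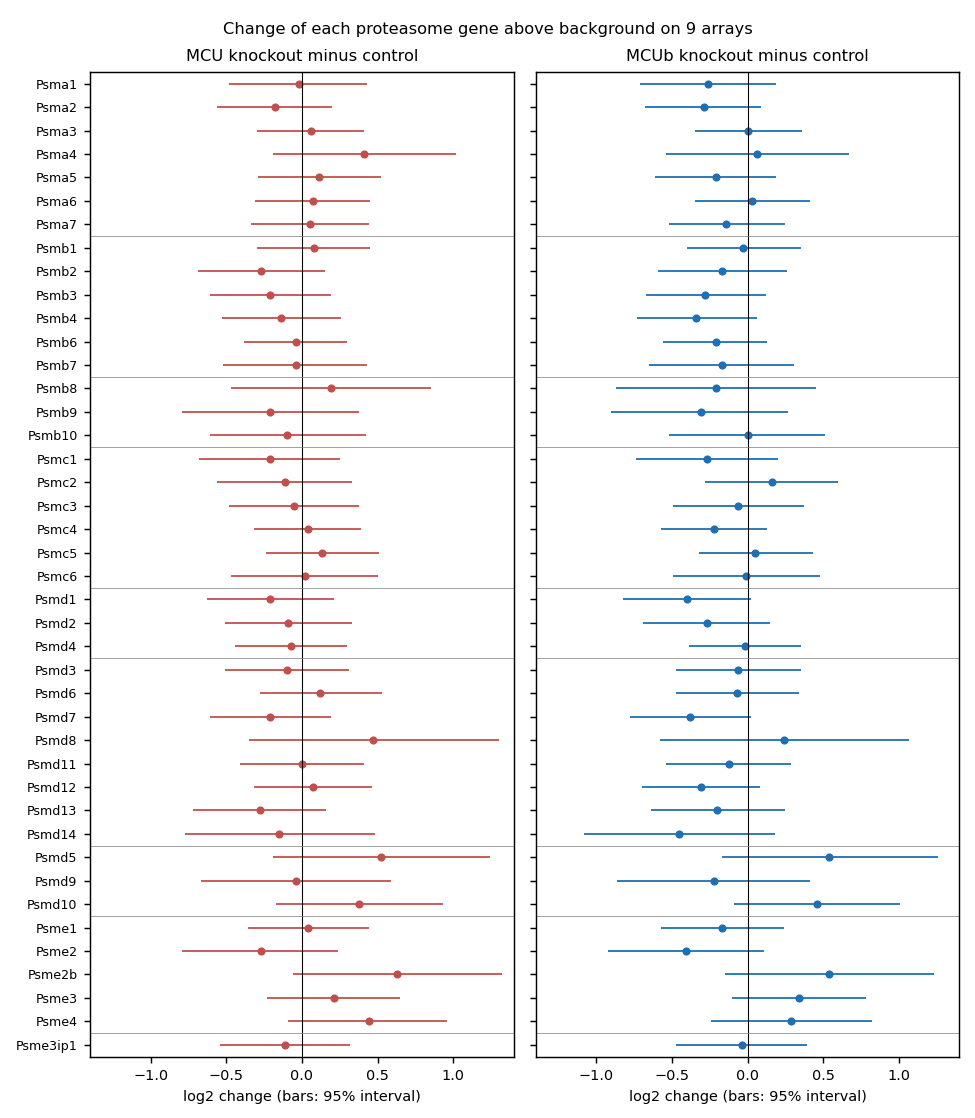
Log2 change from control of the 42 genes detected on all 9 arrays, by role from the alpha ring at the top to the activators and Psme3ip1 at the bottom, with points for the estimate of the fit and bars for its 95% interval. Every interval includes 0 in both comparisons, and the points of the MCUb knockout panel lie left of 0 for 31 of the 42 genes.

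The 9 arrays were unevenly represented among the extremes of the members. Control replicate 3 held the highest value of the 9 for 16 of the 42 detected members, where 19.6% of all detected probe sets peaked on it. It also held the lowest value of 7 members, beside 21.9%. MCUb knockout replicate 3 held the highest value of 0 members and the lowest of 8, beside 7.52% and 9.88% of detected probe sets. MCU knockout replicate 1 and MCUb knockout replicate 1 each held the lowest of 7, beside 13.3% and 9.78%. Proteasome genes were steadier within genotypes than most detected probe sets: the median within-group SD was 0.20 over the 42 members, 0.16 over the core and 0.19 over the regulatory particle, beside 0.31 over the 8684 detected probe sets. Bright probe sets vary less in general, and the median over the 1618 with a mean level over 12 was 0.21. The genes of lowest SD were Psmb6 with 0.05, Psmc4 with 0.08 and Psma3 with 0.09, and those of highest SD were Psmd8 with 0.57, Psmd5 with 0.48 and Psme2b with 0.46.

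Genes that work with the proteasome were read from 5 lists, and none of their genes passed the adjusted threshold in any comparison (limma). At an unadjusted p under 0.05, the counts in the order of the lists below were 0, 0, 1, 2 and 1 in MCU knockout, 1, 0, 1, 0 and 0 in MCUb knockout, and 0, 0, 0, 2 and 1 between the knockouts, beside 10.1%, 8.11% and 5.7% of all probe sets. Of 12 assembly chaperones and cofactors outside the Psm prefixes, 0 passed, with median changes of -0.01 in MCU knockout and -0.07 in MCUb knockout. Sem1, a small subunit of the lid, was 16.10, 16.28 and 15.76 in control, 16.06, 16.29 and 16.33 in MCU knockout, and 16.44, 16.44 and 16.49 in MCUb knockout. Its MCUb knockout arrays were above all 6 others, opposite in direction to the lid genes Psmd7 and Psmd12, by 0.41 ± 0.19 against control (limma, adjusted p = 0.607). Of 8 regulators of subunit transcription, 0 passed, with medians of 0.13 and 0.02, and 3 of the 8 were above background on no array. Of 10 ubiquitin carriers and shuttle factors, 0 passed, with medians of 0.10 and 0.12. Ubqln2, a shuttle factor that brings ubiquitinated proteins to the proteasome, was 7.52, 6.75 and 7.18 in control and 6.87, 6.29 and 6.62 in MCUb knockout. These overlapped, at -0.56 ± 0.25 (limma, adjusted p = 0.607).

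Of 14 muscle ubiquitin ligases and atrophy genes, 0 passed, with medians of -0.20 in MCU knockout and -0.07 in MCUb knockout. Fbxo32, the ligase atrogin-1, was 10.96, 11.71 and 11.40 in control, 12.46, 11.79 and 12.27 in MCU knockout, and 11.83, 10.84 and 11.13 in MCUb knockout. The MCU knockout arrays were all above control, by 0.82 ± 0.29 (limma, adjusted p = 0.412), and by 0.90 ± 0.29 against MCUb knockout with overlap (adjusted p = 0.615). Trim63 was also wholly above control in MCU knockout, by 0.59 ± 0.34 (limma, adjusted p = 0.581). Of the 14 genes, 2 lay wholly above control there and 1 wholly below, beside 6.44% and 9.48% of detected probe sets. Mstn, the muscle growth inhibitor myostatin, was 12.23, 11.68 and 11.95 in control, 11.54, 11.08 and 10.83 in MCU knockout, and 11.51, 11.29 and 12.03 in MCUb knockout. The MCU knockout arrays were all below control, by -0.81 ± 0.26 (limma, adjusted p = 0.361). The ligase Fbxo30 differed between the knockouts by 0.58 ± 0.22 without overlap (limma, adjusted p = 0.744).

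Of 5 antigen processing partners of the inducible subunits, 0 passed, with medians of 0.08 and 0.15. Tap1, a peptide transporter whose gene lies beside Psmb9, was 5.45, 5.94 and 4.82 in control, 6.58, 5.95 and 6.64 in MCU knockout, and 5.24, 5.27 and 5.82 in MCUb knockout. It was above background on 4 of the 9 arrays, namely the 3 of MCU knockout and control replicate 2. With 2 control arrays and all 3 MCUb knockout arrays under the limit, only bounds are known there, and no size of difference is given. The adjusted p of the fit was 0.345 against control and 0.6 between the knockouts (limma). Psmb9 overlapped in the same comparisons. Erap1, a peptidase that trims antigens, was 7.54, 7.94 and 5.55 in control and 7.59, 8.40 and 7.96 in MCUb knockout. Control replicate 3 alone was low and under background, so no size of the change is given. The adjusted p of the fit was 0.623 (limma).

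Markers of other cell types were read beside the MCUb knockout pattern. The mean of 9 endothelial markers ran from 8.29 to 8.99 in control, 8.51 to 8.71 in MCU knockout and 8.0 to 8.54 in MCUb knockout, with 7 of the 9 above background on every array. In MCUb knockout 7 of the 9 lay below control, beside 11994 of all 22206 probe sets. Pecam1 and Tie1 lay above, by 0.26 and 0.05. Kdr, with a change of -1.09, and Cldn5 alone had an unadjusted p under 0.05 (limma). These were 2 of 9, beside 8.11% of all probe sets, and 0 of the 9 passed the adjusted threshold. Cldn5 was under background on MCUb knockout replicate 3, so no size of its change is given. The mean of 7 fibroblast markers ran from 9.71 to 10.50, 9.68 to 11.05 and 9.78 to 10.62. That of the 12 muscle fibre markers ran from 17.66 to 18.08, 17.98 to 18.07 and 17.96 to 18.09. In MCUb knockout 10 of these 12 lay above control, beside 4383 of the 8684 detected probe sets. In MCU knockout 10 of the 12 did, beside 4123 of the 8684. Their median change was 0.15 in each knockout, and 0 of the 12 passed the adjusted threshold. The part of cell composition in the lower subunit levels was not tested.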

How the data were processed

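Total RNA of 9 tibialis anterior samples was hybridised to Clariom S arrays. The deposited log2 values, 1 per probe set and array, came from the authors, who per the submitters' processing notes used Affymetrix Expression Console. Its version, summarisation, normalization and log base are not given in the sources used here. Of 28846 values per array, 6640 belonged to control features and 22206 were tested. A table of platform annotation named 19572 of these with 1 symbol, 2634 with none and 0 with several. All 44 members matched RefSeq names of GRCm38.p6.

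Values were used as deposited. Differences were fitted with limma 3.58.1 in R 4.3.3 (lmFit, eBayes, two-sided), with all 9 arrays in 1 fit of 3 group means, 6 residual and 5.06 prior degrees of freedom. Benjamini-Hochberg adjustment covered the 22206 probe sets, with a threshold of 0.05, and the fit was tested on simulated data. Group SDs are over 3 arrays, and within-group SDs are pooled over the 3 genotypes. The SE of a change comes from the fit, with a variance pooled over the 9 arrays and drawn towards that of all probe sets. The number of arrays limits the precision. The members, gene lists and tests were chosen with earlier results of these data known. Values on every array are given, by rule, for the 3 members of smallest p in each comparison, the inducible subunits and those they replace, Psme1 to Psme4, and the members of highest and lowest level in each role, and of the pathway lists the 3 genes of smallest p in each comparison are named. The genes wholly below control, Psmd8 and Trim63 were added after their values were seen, as was the description by groups that do not overlap. Alternatives were a filter on dim probe sets, 2 normalizations, a trended robust prior, array weights, fits of 2 groups, a replicate block, a covariate from Uty and Kdm5d, the mean over probe sets, and leaving out each array.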

Additional observations from a re-analysis of the deposited data

How the results depend on the processing

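Under every alternative run, and without each array in turn, 0 members passed the adjusted threshold in each comparison. The number of arrays limits this, the median SE over all probe sets being 0.23. The count of members with an unadjusted p under 0.05, 0 in each comparison, was more open to the setting. In MCU knockout against control it was 1 of 44 with array quality weights and 1 with the Uty and Kdm5d covariate, beside 10.6% and 7.68% of all probe sets. Leaving out single arrays it was 0 to 4, the 4 without control replicate 2, beside 16.6%. In MCUb knockout against control it was 2 with an intensity trend and robust prior and 2 with array weights, beside 8.39% and 9.32%, and 0 to 8 leaving out single arrays. The 8 came without control replicate 2, beside 3339 of the 22206 probe sets, and 3 came without control replicate 3, beside 6.26%. Between the knockouts it was 2 with the trend and robust prior, 1 with array weights and 1 with the 2 groups alone, beside 5.44%, 8.11% and 7.71%, and 0 to 1 leaving out single arrays, beside 4.67% to 7.10%.

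The median change of the 42 detected members in MCU knockout turned to 0.03 with array weights, and that of the core to 0.08. Leaving out single arrays it ran from -0.04 to 0.03 for the 42 members, from -0.06 to 0.05 for the core and from -0.12 to 0.00 for the regulatory particle. In MCUb knockout it ran from -0.19 to -0.09 for the 42 members and from -0.21 to -0.12 for the regulatory particle, and stayed below 0 in every setting. Between the knockouts the regulatory median ran from 0.05 to 0.12. Counts of members whose groups do not overlap were tried under settings chosen after seeing the data. In MCU knockout 1 of 42 was wholly higher with quantile normalization and 1 wholly lower with arrays centred on the median, beside 7.29% and 10.1% of detected probe sets, and 2 were wholly lower than in MCUb knockout with that centring, beside 9.96%. In MCUb knockout the 9 wholly lower became 7 and 8 under the same settings, beside 7.87% and 6.84%. With 1 array fewer, the counts in MCU knockout were 0 to 7 higher, beside 9.01% to 16.9% of detected probe sets, and 1 to 4 lower, beside 13.3% to 18.3%. The 7 came without control replicate 3, beside 9.90%. In MCUb knockout they were 0 to 4 higher, beside 10.8% to 18.0%, and 9 to 14 lower, beside 10.7% to 16.8%. Between the knockouts they were 7 to 12 higher, beside 9.07% to 12.9%, and 1 to 4 lower, beside 13.3% to 15.3%.

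Sign changes of single genes were followed only for Psme2b, Psme4, Psmd5, Psmd7, Psmd1, Psmd10, Psmd12, Psma5, Psmc4 and Psmd8. Other members turned as well. Of the 13 core genes, 7 lay below 0 in MCU knockout, but 5 with array weights. In MCUb knockout 10 lay below 0, but 13 without MCUb knockout replicate 2. The followed genes that turned are given next. None had passed the test and the cause was not tested. With the Uty and Kdm5d covariate Psmd8 stood at -0.25 in MCU knockout, -0.11 in MCUb knockout and -0.13 between the knockouts, and Psme4 at -0.02 between the knockouts. With quantile normalization Psmd5 stood at 0.02 between the knockouts. Leaving out single arrays moved Psmd12 from -0.04 to 0.19 and Psmc4 from -0.02 to 0.10 in MCU knockout, both lowest without control replicate 2, and Psmd8 from -0.13 to 0.47 in MCUb knockout, lowest without its replicate 1. Between the knockouts the ranges were -0.05 to 0.64 for Psmd8, -0.09 to 0.30 for Psme2b, -0.03 to 0.32 for Psme4, -0.27 to 0.13 for Psmd5 and -0.33 to 0.07 for Psmd10.

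With the replicate number as a block, 0 members passed in each comparison, and 24, 5 and 28 of all probe sets did, beside 31, 5 and 35 without it. Deviations of same-numbered arrays correlated between -0.121 and 0.0882, and those of different-numbered arrays between -0.118 and 0.0929. No pairing by number was thus detected. With 3 arrays per genotype, this does not establish that the samples were unpaired.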
